A study of Mus musculus with 10 samples.

Results

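The genes followed here in mouse oocytes are 10 nuclear genes whose products copy, transcribe or control mitochondrial DNA: Tfam, Tfb1m, Tfb2m, Polg, Polg2, Polrmt, Twnk, Ssbp1, Nrf1 and Gabpa. They were taken by gene symbol from a table of 18493 genes, and all 10 of 10 were present and passed the filter on low counts. Oocytes from the ovary were profiled by SMART-seq2, in which polyadenylated RNA is copied from an oligo dT primer and amplified, in 10 libraries. The groups were spermidine (4 libraries, labelled as a rescue), aged (3 libraries, labelled as the treatment) and young (3 libraries, labelled as the control). The labels give no strain, age, dose or number of oocytes or animals behind a library, so each p-value rests on how far libraries of a group lie apart, and that distance may be technical. The series asks what spermidine, a polyamine metabolite, does to the transcripts of aged oocytes.

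Mitochondrial DNA is a small circular genome that is copied and read by machinery made entirely from nuclear genes. The helicase Twinkle (Twnk) unwinds it, the single-strand binding protein (Ssbp1) coats the opened strand, and DNA polymerase gamma (Polg, the catalytic subunit, with Polg2, the processivity subunit) copies it. Transcription starts when TFAM, which also packages the DNA into nucleoids, and TFB2M place the RNA polymerase POLRMT at a promoter, while TFB1M methylates the small ribosomal RNA of the mitochondrion. Nuclear respiratory factor 1 (Nrf1) and GABPA, the DNA-binding subunit of an ETS-family factor, are known as activators of many of these genes. Oocytes carry very many copies of mitochondrial DNA, laid down as the egg grows and then shared out among the cells of the embryo.

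The promoters are shown for the element that GABPA and other ETS factors bind, since 2 of the genes are themselves upstream factors. The letters CCGGAAG, on either strand, were searched in the 250 bases before each RefSeq start of the GRCm38.p6 build, as was the NRF1 core TGCGCA, which reads the same on both strands and whose matches did not overlap those of the first. CCGGAAG was present before 7 of the 10 genes, with 8 matches over 12 windows. Of 32851 such windows 6.91% hold it, which is a share per window and not per gene. Twnk and Nrf1 had 2 windows each, and both matches of Twnk lay in the same window. TGCGCA was present before 2 of the 10, where 6.43% of windows hold it. A match describes letters and not binding, and no match says only that these letters were not in the window. The matches are in capitals with 10 bases on each side, on the strand of the gene, and CTTCCGG marks a match on the opposite strand.
Tfam, chr10:71238075-71238101, minus strand: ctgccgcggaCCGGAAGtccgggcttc
Polrmt, chr10:79746608-79746634, minus strand: cctaagagcgCTTCCGGcagtcgcaga
Twnk, chr19:45006438-45006464, plus strand: taaccggtgaCTTCCGGttccggggtt
Twnk, chr19:45006482-45006508, plus strand: gagagttttgCTTCCGGagtcaccgcg
Ssbp1, chr6:40471411-40471437, plus strand: gctccgtgcgCCGGAAGcgagccgctg
Polg, chr7:79466295-79466321, minus strand: aggacctcacCCGGAAGtccctctgca
Polg2, chr11:106779550-106779576, minus strand: gggtgacgctCTTCCGGgggcgtggtc
Gabpa, chr16:84835021-84835047, plus strand: agggtaagtgCTTCCGGgtccctcagc
The NRF1 core stood before Polrmt and Tfb2m.
Polrmt, chr10:79746700-79746725, minus strand: agagtatttcTGCGCAtgctctcttg
Tfb2m, chr1:179546442-179546467, minus strand: cgcctccctcTGCGCAaccctcccgg
Tfb1m and Nrf1 had neither set of letters in their windows. The element of Tfam began 47 bases before the start, as did that of Ssbp1, and those of Polrmt, Polg and Polg2 began 43, 38 and 29 bases before it.

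Library totals ran from 24222201 to 28730822 counts. Levels are given in CPM, the counts of a gene scaled to the same effective library size in every library. All 12 oocyte markers on a fixed list, such as Zp3 and Gdf9, passed the filter. Together they made 24130 to 40380 CPM in spermidine, 31750 to 39180 CPM in aged and 32040 to 35190 CPM in young oocytes. Of these markers, Nlrp5 rose and Figla fell in aged against young oocytes (log2 fold changes 1.03 and -0.56, edgeR adjusted p = 0.0318 and 0.0271). The filter passed 5 of 10 granulosa markers, 3 of 7 theca and stromal markers and 6 of 10 blood markers. The 10 granulosa markers summed to 20.2 to 26.0 CPM in spermidine, 18.5 to 22.1 CPM in aged and 19.3 to 22.3 CPM in young oocytes. Cyp19a1 (8.81 to 16.7 CPM) and Nr5a2 (3.63 to 8.15 CPM) made up most of these sums, while Foxl2 was at or under 0.202 CPM and Amh at or under 0.0363 CPM. Fshr and Nr5a2 rose in aged against young oocytes (log2 fold changes 1.79 and 0.61, edgeR adjusted p = 0.0125 and 0.0481). The other tested markers of this list went the other way and did not pass. Hsd17b1 had -2.28, Inha -0.81 and Cyp19a1 -0.43 (edgeR adjusted p = 0.0775, 0.434 and 0.135). Nr5a2 also rose in spermidine against young oocytes (0.78, adjusted p = 0.0297). There Fshr and Inha had 1.05 and 0.70, Cyp19a1 and Hsd17b1 had -0.33 and -0.10, and none of these passed. The blood markers together were highest in young replicate 1 (26.8 CPM), then young replicate 3 (15.6 CPM) and aged replicate 1 (11.9 CPM), with no other library over 1.34 CPM. Aged replicate 1 also stood apart by transcript length: across genes, its deviations from the mean level correlated with length at 0.406, against -0.212 to 0.139 in the other 9 libraries. Genes are not independent replicates, so these correlations only describe the libraries.

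Levels per kilobase depend on which transcript is used, so each is given for the longest and the shortest coding transcript of the GENCODE basic set. In spermidine oocytes Nrf1 stood at 10.8 to 25.3 CPM per kilobase, Tfb1m at 15.8 and Ssbp1 at 6.37 to 30.0. Tfam stood at 3.27 to 17.5, Polrmt at 4.78 to 5.08, Tfb2m at 3.85 and Twnk at 2.3 to 3.65 CPM per kilobase. Polg at 0.366, Polg2 at 0.597 and Gabpa at 0.294 to 0.665 were under 1 CPM per kilobase with either length, as they were in aged and young oocytes. Polg2 had only 15 to 32 counts in a library and Gabpa 12 to 53, so counting error alone was large for both. The counts of Nrf1, Tfb1m, Polg and Twnk were not whole numbers in 9, 9, 10 and 6 of the 10 libraries, so part of their reads was shared out with other genes by the authors' counting.

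**Figure D1:**
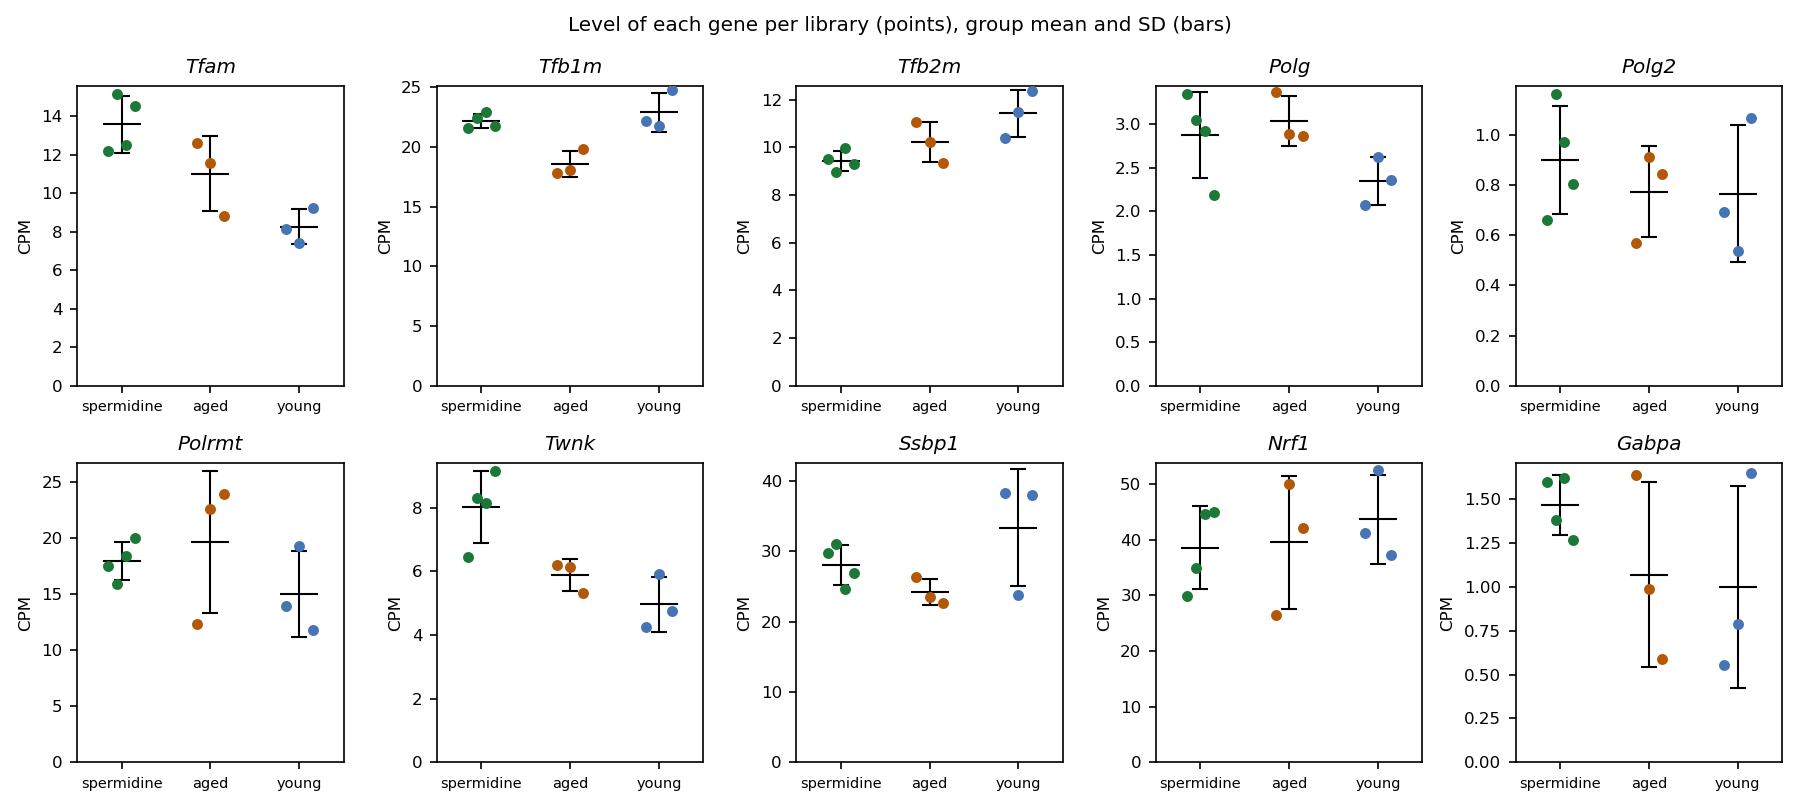
Level in CPM (vertical axes, each from 0) of the 10 genes in each library (points) of the spermidine, aged and young groups, with the group mean and SD as bars. Tfam and Twnk are higher in every spermidine library than in any young library, while Polrmt, Ssbp1, Nrf1, Polg2 and Gabpa overlap in all groups.

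Tfam packages mitochondrial DNA and starts its transcription. Tfam had 12.2, 15.2, 12.5 and 14.5 CPM in spermidine oocytes, against 12.6, 11.6 and 8.84 CPM in aged oocytes and 8.15, 7.43 and 9.25 CPM in young oocytes. All 4 spermidine libraries were above all 3 young libraries, and the aged libraries overlapped both groups, with aged replicate 3 at the young level. Tfam was 1.64-fold higher in spermidine than in young oocytes (log2 fold change 0.72, SE 0.17, edgeR adjusted p = 0.0333) and was the 1 gene of the 10 that passed in any of the 3 comparisons. Its log2 fold change was 0.41 (SE 0.18, 95% interval 0.02 to 0.81) for aged minus young and 0.30 (SE 0.17, -0.07 to 0.67) for spermidine minus aged, and neither passed (edgeR adjusted p = 0.131 and 0.300). The last 2 comparisons share the aged libraries. Nr5a2 of the granulosa list was called in the same comparison as Tfam, and its part in the result was not tested. In bulk libraries, fewer cells of a type and less RNA per cell cannot be told apart.

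The spermidine minus young call for Tfam was fragile, while its log2 fold change was 0.62 to 0.90 over all 20 alternatives. The call was lost without any 1 of the 3 young libraries and without spermidine replicate 2, 3 or 4. Over all libraries left out, its log2 fold changes were 0.62 to 0.76, with edgeR adjusted p up to 0.159. With a library left out, 283 to 874 of all genes passed in this comparison, against 660 with none left out. The call for Tfam was also lost with the replicate number as a block (0.68, adjusted p = 0.0868). It held without the first aged and the first spermidine library together (0.75, adjusted p = 0.0147) and by DESeq2 (0.67, adjusted p = 0.00598). Correction for transcript length and GC content kept the value against young (0.76) and moved how it was divided, to 0.81 for aged minus young (edgeR adjusted p = 0.00918) and -0.05 for spermidine minus aged. The annotated coding transcripts of Tfam run from 779 to 4167 bases, so the length used in that correction is uncertain.

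Twnk, the helicase gene, had 6.47, 8.30, 8.14 and 9.17 CPM in spermidine oocytes, against 6.21, 6.14 and 5.32 CPM in aged oocytes and 4.24, 5.92 and 4.76 CPM in young oocytes. Every spermidine library was above every aged and every young library, with spermidine replicate 1 only just above aged replicate 1. The log2 fold change was 0.68 (SE 0.19, 95% interval 0.28 to 1.09) for spermidine minus young, which missed the threshold (edgeR adjusted p = 0.0535), and 0.44 (SE 0.18, 0.05 to 0.84) for spermidine minus aged (adjusted p = 0.163). The second passed with length and GC correction (0.60, edgeR adjusted p = 0.0437). Between aged and young oocytes it was 0.24 (SE 0.20, -0.19 to 0.67, adjusted p = 0.4004). Against young, Twnk passed with DESeq2 (0.64, adjusted p = 0.0182), with total count scaling (0.85), with length and GC correction (0.60) and without spermidine replicate 1 (0.73, edgeR adjusted p = 0.0472). In the authors' deposited table, Twnk had a log2 fold change of 0.43 with p = 0.0354 and q = 0.270 for spermidine against aged.

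Ssbp1, which encodes the single-strand binding protein, was lowest on average in aged oocytes. It had 29.7, 31.0, 24.6 and 26.8 CPM in spermidine oocytes, 26.3, 23.5 and 22.7 CPM in aged oocytes, and 38.3, 23.8 and 37.9 CPM in young oocytes. Young replicates 1 and 3 were above all other libraries, and young replicate 2 lay among the aged ones. The log2 fold change for aged minus young was -0.46 (SE 0.19, 95% interval -0.87 to -0.05) and did not pass (edgeR adjusted p = 0.106). Without young replicate 2 it was -0.65 and passed (adjusted p = 0.0256), and with length and GC correction it was -0.10. The same young replicates 1 and 3 held the blood markers given above, whose part in this value was not tested. For spermidine the log2 fold change was 0.21 (SE 0.18, -0.17 to 0.60) against aged and -0.25 (SE 0.18, -0.63 to 0.13) against young oocytes, neither of which passed (adjusted p = 0.489 and 0.462).

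Neither subunit of the polymerase passed in any comparison. Polg had 3.34, 3.05, 2.92 and 2.19 CPM in spermidine oocytes, against 3.37, 2.88 and 2.86 CPM in aged oocytes and 2.07, 2.62 and 2.36 CPM in young oocytes. The 3 aged libraries were above the 3 young ones, and spermidine replicate 4 lay at the young level. Its log2 fold change was 0.37 for aged minus young (SE 0.21, 95% interval -0.09 to 0.83, edgeR adjusted p = 0.235) and was -0.02 with length and GC correction. Polg2 averaged 0.900 ± 0.215 CPM in spermidine oocytes (SD, n = 4), 0.774 ± 0.182 in aged and 0.766 ± 0.272 in young oocytes (SD, n = 3 each). For aged minus young, the interval of the log2 fold change of Polg2, -0.75 to 0.79, takes in changes in either direction of over 1.5-fold.

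**Figure D2:**
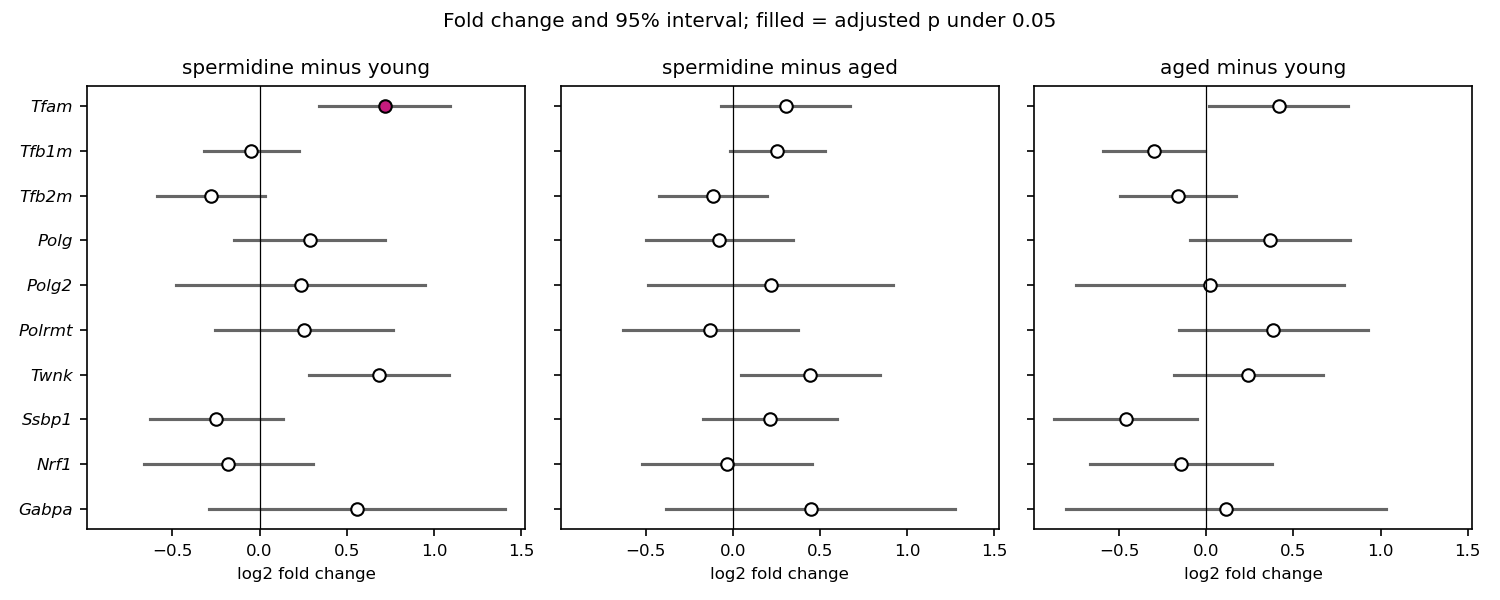
Log2 fold change (horizontal axes) of the 10 genes in 3 comparisons with 95% intervals as lines; filled points passed at an adjusted p of 0.05. Tfam in spermidine minus young oocytes is the single filled point, and the widest intervals are those of Gabpa and Polg2.

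Polrmt, the RNA polymerase gene, had a coefficient of variation of 9.61% over spermidine, 32.4% over aged and 25.7% over young libraries. It had 17.5, 15.9, 18.4 and 20.02 CPM in spermidine oocytes, against 12.3, 22.6 and 23.96 CPM in aged oocytes and 13.9, 19.3 and 11.8 CPM in young oocytes. In each group its highest values stood in the libraries whose deviations correlated positively with GC content across genes: spermidine replicate 4 (0.198), aged replicates 2 and 3 (0.255 and 0.380) and young replicate 2 (0.112). The other 6 libraries had correlations of -0.262 to -0.0696, and at 60.8% GC the transcripts of Polrmt are the most GC-rich of the 10 genes. The part of GC content in this spread was not tested. Its log2 fold change for aged minus young was 0.38 (SE 0.25, edgeR adjusted p = 0.288) and -0.21 with length and GC correction. That for spermidine minus aged was -0.13 (SE 0.23, adjusted p = 0.767) and 0.23 with the correction. Without the first aged and the first spermidine library, the aged minus young value of Polrmt was 0.58 and passed (adjusted p = 0.0466).

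Tfb1m and Tfb2m, which descend from the same methyltransferase family, stood in different orders over the groups. Tfb1m had 21.5, 22.4, 22.9 and 21.8 CPM in spermidine oocytes, 17.8, 18.1 and 19.9 CPM in aged oocytes, and 22.2, 21.8 and 24.7 CPM in young oocytes. The aged libraries were below all others, and the spermidine libraries lay within 1.06-fold of each other, the tightest spread of any of the 10 genes. The log2 fold change of Tfb1m was -0.30 for aged minus young (SE 0.13, 95% interval -0.59 to -0.01, edgeR adjusted p = 0.132) and 0.25 for spermidine minus aged (SE 0.13, -0.02 to 0.53, adjusted p = 0.238), so neither passed. DESeq2 called the first (-0.34, adjusted p = 0.0415), and with length and GC correction it was -0.07. In the authors' deposited table it had p = 0.0438 and q = 0.198 for aged against young. Spermidine and young oocytes differed by -0.05 (SE 0.12, -0.32 to 0.22).

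Tfb2m, the partner of TFAM at the start of transcription, was lowest with spermidine, at 9.50, 8.96, 9.96 and 9.32 CPM, against 11.0, 10.2 and 9.36 CPM in aged oocytes and 10.4, 11.5 and 12.4 CPM in young oocytes. All spermidine libraries were below all young ones, and the aged libraries lay across both. Its log2 fold change for spermidine minus young was -0.28 (SE 0.14, 95% interval -0.59 to 0.03) and did not pass (edgeR adjusted p = 0.310). Those for aged minus young (-0.16, SE 0.15) and spermidine minus aged (-0.11, SE 0.14) did not pass either (adjusted p = 0.469 and 0.657).

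Because Tfam and Tfb2m act at the same promoter, their balance was also read inside each library, where library scaling cancels. This ratio was chosen after the levels were seen and is given without a test. The log2 ratio of Tfam to Tfb2m counts was 0.36, 0.76, 0.33 and 0.64 in spermidine oocytes, 0.20, 0.18 and -0.08 in aged oocytes, and -0.35, -0.63 and -0.42 in young oocytes. The 3 groups did not overlap: every spermidine library was above every aged one, and every aged one above every young one. The gap between spermidine and young was fixed by the levels already seen, Tfam being higher and Tfb2m lower in every spermidine library. It is therefore no added support. How often other pairs of genes separate the groups was not computed, so the gaps to the aged group are no support either. The ratio of Tfam to Ssbp1 separated only young from the rest, with -1.29 to -0.89 in spermidine, -1.36 to -1.02 in aged and -2.23 to -1.68 in young oocytes. The other 3 of the 6 ratios computed overlapped between groups. Among them that of Tfam to Polrmt, which acts at the same promoter too, was -0.56 to -0.06 in spermidine, -1.44 to 0.03 in aged and -1.38 to -0.35 in young oocytes. The ratio of Tfb1m to Tfb2m was 1.18 to 1.32 in spermidine, against 0.69 to 1.09 in aged and 0.92 to 1.09 in young oocytes. Length and GC trends do not cancel in such ratios, and their part was not tested.

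**Figure D3:**
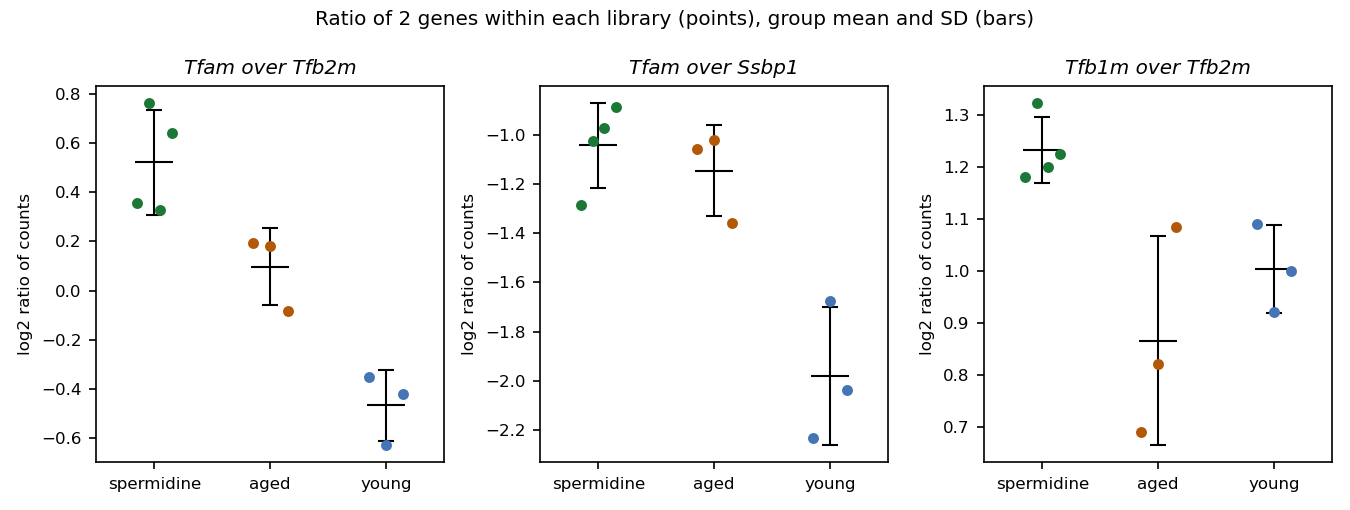
Log2 ratio of the counts of a pair of genes within each library (points), by group, with mean and SD as bars. For Tfam over Tfb2m the means were 0.52 in spermidine, 0.10 in aged and -0.47 in young oocytes, with no overlap between groups. This pair was chosen after the levels were seen, and how often other pairs separate the groups was not computed. The pairs shown are those that separated a group. Tfam over Polrmt, Twnk over Ssbp1 and Twnk over Polg overlapped between groups and are not shown.

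The upstream factors gave no called difference. Nrf1, the most abundant of the 10 genes in CPM, had 29.9, 34.9, 44.6 and 45.0 CPM in spermidine oocytes, against 26.5, 49.95 and 42.2 CPM in aged oocytes and 41.2, 52.6 and 37.2 CPM in young oocytes. The groups overlapped throughout, with the lowest values in aged replicate 1 and spermidine replicate 1, the libraries with the highest signed length correlations (0.406 and 0.139). The log2 fold change of Nrf1 was -0.14 for aged minus young (SE 0.24, 95% interval -0.67 to 0.38) and -0.03 for spermidine minus aged (SE 0.22, -0.52 to 0.45), with edgeR adjusted p = 0.689 and 0.942. Gabpa had 1.59, 1.38, 1.62 and 1.27 CPM in spermidine oocytes, 1.63, 0.985 and 0.587 CPM in aged oocytes, and 0.553, 0.790 and 1.65 CPM in young oocytes. Its spermidine libraries were close together, while the aged and young ones spread 2.78-fold and 2.98-fold. For spermidine minus young the interval of Gabpa, -0.29 to 1.41 on the log2 scale, was too wide to tell a rise from none (adjusted p = 0.459).

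Read over all 10 genes, few calls were made. Between aged and young oocytes 0 of 10 passed edgeR's test, while 17.8% of 12315 tested genes did; 3 of the 10 had an unadjusted p under 0.05, and DESeq2 called 1. Between spermidine and aged oocytes 0 of 10 passed against 4.86% of all genes, with 1 at an unadjusted p under 0.05 and 0 by DESeq2. Between spermidine and young oocytes 1 of 10 passed against 5.36% of all genes, and 2 by DESeq2. A single call among 10 is near that background. DESeq2 called 2887, 1366 and 1099 of all 12315 genes in these 3 comparisons, more than edgeR each time. Groups did not overlap for 2 of the 10 genes between aged and young, against 40.0% of all genes. They did not overlap for 2 of 10 between spermidine and aged, against 19.9%, and for 3 of 10 between spermidine and young, against 21.0%. The median log2 fold change of the 10 was 0.07 for aged minus young (0.10 over all genes), 0.21 for spermidine minus aged (-0.03 over all genes) and 0.25 for spermidine minus young (0.04 over all genes).

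Around these 10, a list of 63 other genes of mitochondrial DNA and RNA upkeep was read the same way, and 61 were tested. Ppargc1a, a coactivator of NRF1, and the receptor gene Esrra were under the filter, at no more than 0.178 and 0.0602 CPM in any library. Between aged and young oocytes 6 of the 61 rose and 3 fell, 14.8% in all against 17.8% of all genes. Between spermidine and aged 3 rose and 1 fell, and between spermidine and young 4 rose and 0 fell, 6.56% each time against 4.86% and 5.36% of all genes. The balance between spermidine and aged depended on the method: DESeq2 called 4 higher and 7 lower, the replicate block 4 and 6, and length and GC offsets 2 and 5. Over all genes, DESeq2 called 653 higher and 713 lower, the block 434 and 564, and the offsets 322 and 468. The main edgeR fit called 298 higher and 300 lower over all genes. Between spermidine and young, DESeq2 called 6 higher and 2 lower, against 579 and 520 over all genes.

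Of 7 tested genes of transcription elongation and termination, 2 fell in aged against young oocytes and 2 rose in spermidine against aged oocytes, where 17.8% and 4.86% of all genes were called. In the other 4 lists the share called between aged and young was at most 16.7%, under that of all genes. Mterf3, a member of the mitochondrial termination factor family known in mice to restrain mitochondrial transcription, had 36.6, 46.4, 37.1 and 41.7 CPM in spermidine oocytes. It had 22.1, 25.4 and 22.4 CPM in aged oocytes and 48.1, 41.6 and 48.5 CPM in young oocytes. Every aged library was below every other library. Mterf3 fell in aged against young oocytes (log2 fold change -0.98, SE 0.15, edgeR adjusted p = 0.00160) and rose in spermidine against aged oocytes (0.80, SE 0.14, adjusted p = 0.0121), and these comparisons share the aged libraries. Spermidine and young oocytes differed by -0.19 (SE 0.14, 95% interval -0.48 to 0.11, adjusted p = 0.480). The fall held in all 20 alternatives (-1.05 to -0.71). The rise held in 18 and was lost without aged replicate 3 or spermidine replicate 2 (0.55 to 0.86, adjusted p up to 0.0515).

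Tefm, the elongation factor of POLRMT, rose in spermidine against aged oocytes, at 7.52 ± 1.10 CPM (SD, n = 4) against 4.81 ± 0.307 CPM (SD, n = 3), with a log2 fold change of 0.65 (SE 0.17, edgeR adjusted p = 0.0496). That call held in only 4 of 19 alternatives and was lost without 9 of the 10 libraries in turn, all but spermidine replicate 4. Mterf1b fell in aged oocytes to 4.11 ± 0.511 CPM, against 7.44 ± 1.34 CPM in young oocytes (SD, n = 3 each, log2 fold change -0.85, SE 0.21, adjusted p = 0.0176). Its call was lost without young replicate 3 or aged replicate 2, with total count scaling and with length and GC correction. Mterf1b has a near copy, Mterf1a, between which reads can be shared, and Mterf1a differed by -0.08 (adjusted p = 0.831). The other 4 tested genes of these 7, Mterf2, Mterf4, Mrpl12 and Mterf1a, passed in none of the 3 comparisons.

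**Figure D4:**
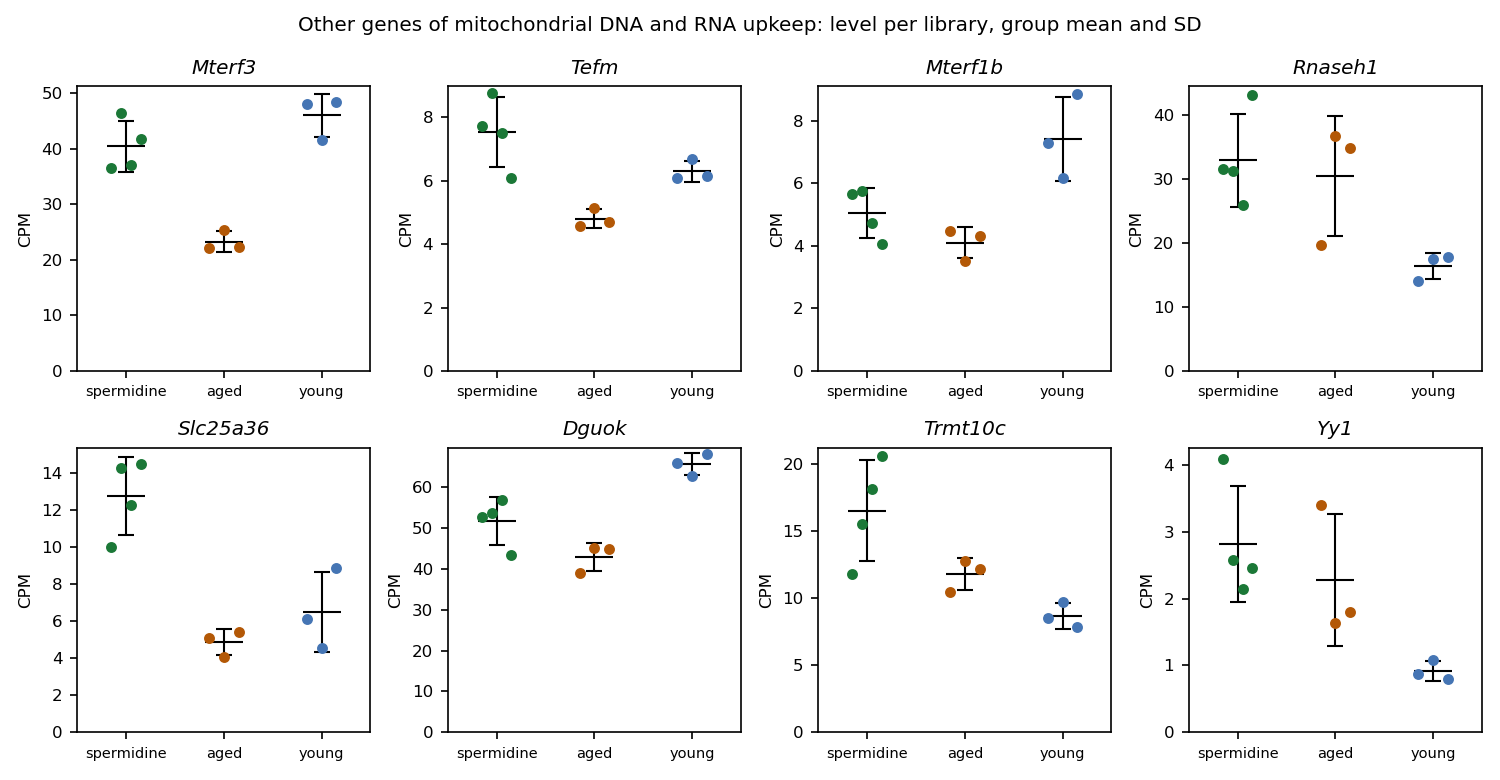
Level in CPM (vertical axes, each from 0) of 8 other genes of mitochondrial DNA and RNA upkeep that passed in at least 1 comparison, per library (points), with group mean and SD as bars. Top3a, Supv3l1, Fastk, Fastkd3 and Ptcd3 also passed in a comparison and are not shown. Their means were highest in aged oocytes. For Mterf3 the 3 aged libraries, at 22.1 to 25.4 CPM, lie below the 4 spermidine libraries, at 36.6 to 46.4 CPM, and the 3 young libraries, at 41.6 to 48.5 CPM.

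Of 18 replication, repair and nucleoid genes, Rnaseh1 and Top3a rose in aged against young oocytes. Rnaseh1, which removes RNA from RNA-DNA hybrids such as the primers of mitochondrial replication, averaged 33.0 ± 7.26 CPM in spermidine (SD, n = 4), 30.4 ± 9.39 CPM in aged and 16.5 ± 2.06 CPM in young oocytes (SD, n = 3 each). Its log2 fold change was 1.00 for spermidine minus young (SE 0.23, edgeR adjusted p = 0.0288) and 0.88 for aged minus young (SE 0.25, adjusted p = 0.0291). The first was lost without any 1 of the young libraries or spermidine replicate 1, 2 or 4. The second was lost without any 1 of the young libraries or aged replicate 2 or 3. Top3a, a topoisomerase that separates linked circles, rose by 0.75 in aged oocytes (SE 0.23, adjusted p = 0.0407), a call kept in 6 of 19 alternatives and lost without any 1 of the young or aged libraries or spermidine replicate 1 or 2.

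In nucleotide supply, Slc25a36, a mitochondrial carrier of pyrimidine nucleotides, had 10.02, 14.2, 12.3 and 14.5 CPM in spermidine oocytes. It had 5.11, 4.09 and 5.43 CPM in aged oocytes and 6.13, 4.56 and 8.85 CPM in young oocytes. All spermidine libraries were above all others. The log2 fold change of Slc25a36 was 1.39 for spermidine minus aged (SE 0.24, edgeR adjusted p = 0.0121), lost only without aged replicate 2 among 20 alternatives, and 0.97 for spermidine minus young (SE 0.23, adjusted p = 0.0321). Against young, its call was lost without young replicate 1 or 2 or spermidine replicate 2, 3 or 4. Dguok, the deoxyguanosine kinase of mitochondria, fell to 42.9 ± 3.50 CPM in aged oocytes, against 65.5 ± 2.65 CPM in young oocytes (SD, n = 3 each, log2 fold change -0.61, SE 0.14, adjusted p = 0.0131). Its call held whichever library was left out and was lost with total count scaling.

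Among 20 genes of mitochondrial RNA processing, Supv3l1 (log2 fold change 0.72, SE 0.21), the helicase of the RNA degradosome, Fastk (1.41, SE 0.41) and Fastkd3 (0.49, SE 0.14) rose in aged against young oocytes (edgeR adjusted p = 0.0333, 0.0340 and 0.0361). Each was lost without young replicate 1, young replicate 3, aged replicate 2 or aged replicate 3. Supv3l1 and Fastkd3 were also lost without young replicate 2, and Fastkd3 without aged replicate 1 or spermidine replicate 2 or 3. Trmt10c, a subunit of the enzyme that cuts transfer RNAs from mitochondrial transcripts, averaged 16.5 ± 3.77 CPM in spermidine oocytes (SD, n = 4). Aged oocytes had 11.8 ± 1.21 CPM and young oocytes 8.68 ± 0.943 CPM (SD, n = 3 each). Trmt10c rose by 0.93 on the log2 scale in spermidine against young oocytes (SE 0.20, edgeR adjusted p = 0.0171). That call was lost without young replicate 1 or 3. Aged minus young had 0.44 (SE 0.21, adjusted p = 0.153) and spermidine minus aged 0.49 (SE 0.19, adjusted p = 0.149), and neither passed. Ptcd3, a protein of the small mitochondrial ribosome subunit, fell in spermidine against aged oocytes (-0.58, SE 0.14, adjusted p = 0.0367), and the call was kept in 8 of 20 alternatives. It was lost without young replicate 1 or 3, aged replicate 1, 2 or 3, or spermidine replicate 1, 2 or 3.

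Of the 6 tested upstream coactivators and partners, Yy1, a transcription factor that works with PGC-1 coactivators, was higher than in young oocytes in both other groups. It had 4.09, 2.57, 2.15 and 2.45 CPM in spermidine oocytes and 3.403, 1.63 and 1.80 CPM in aged oocytes, against 0.875, 1.08 and 0.801 CPM in young oocytes. The log2 fold change was 1.61 for spermidine minus young (SE 0.33, edgeR adjusted p = 0.0143) and 1.304 for aged minus young (SE 0.35, adjusted p = 0.0249), and the 2 share the young libraries. The first was lost without young replicate 1 or 3, and the second without young replicate 1 or 3 or aged replicate 1. Gabpb1 and Gabpb2, which encode partner subunits of GABPA, passed in no comparison. Gabpb1 had -0.35 for aged minus young (SE 0.17, adjusted p = 0.160). Gabpb2 had -0.79 for spermidine minus young (SE 0.24, adjusted p = 0.0743) and -0.77 for aged minus young (SE 0.25, adjusted p = 0.0533), and in both its young libraries were above all others.

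**Figure D5:**
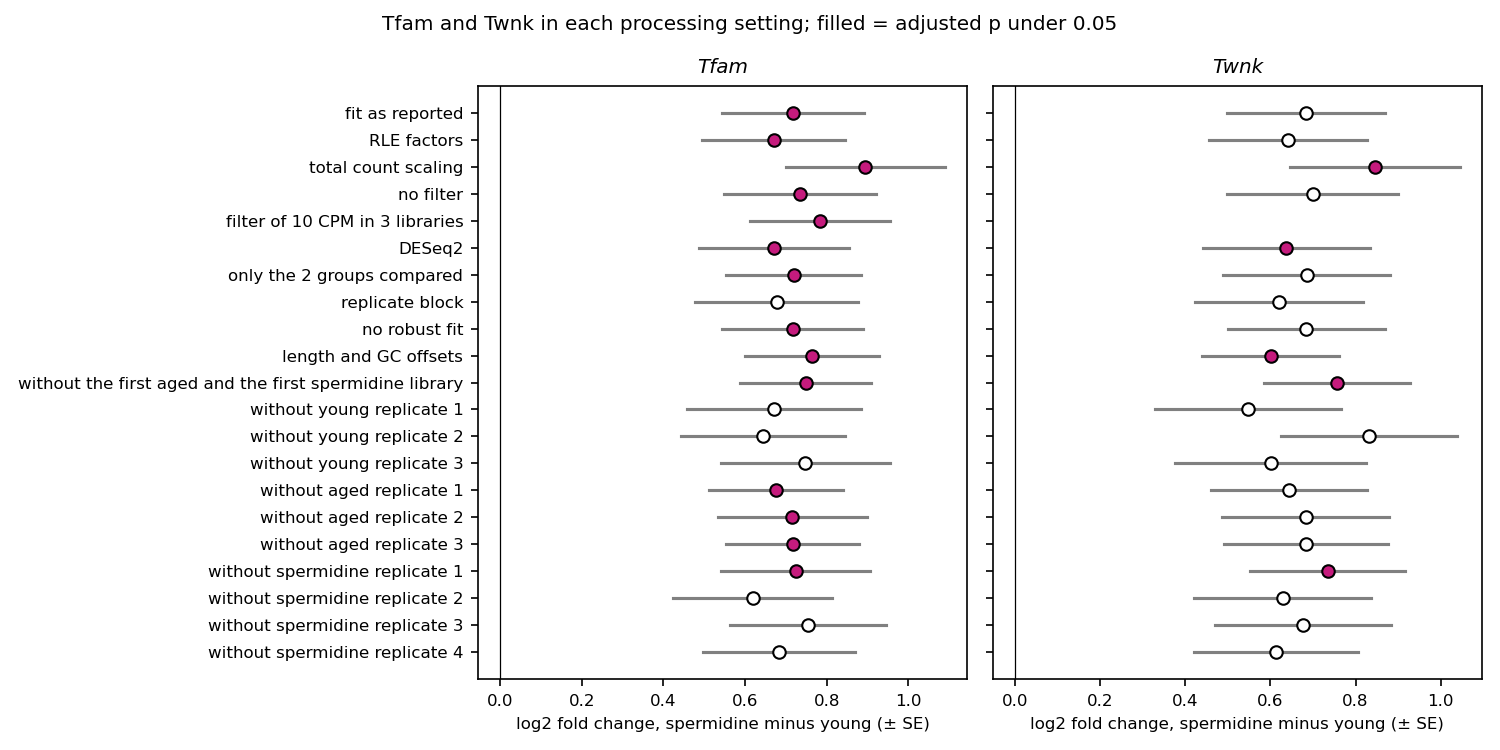
Log2 fold change ± SE (horizontal axes) of Tfam and Twnk for spermidine minus young under each processing setting and with each library left out; filled points passed at an adjusted p of 0.05. All values are above 0 for both genes, and Tfam is filled in 13 of the 20 alternatives and Twnk in 5 of 19.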

How the data were processed

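The table the authors deposited holds an expected count for each gene in each library. It also holds the authors' log2 fold changes, p-values and q-values for 2 comparisons, spermidine over aged and aged over young, per the file headers. Named in the submitters' processing notes, without a role, are RSEM 1.3.1, Bowtie2 2.3.4.3, DESeq2 1.4.5 and the build mm9. Between 15.9% and 16.7% of the counts of a library were not whole. Strand use is not given in the sources used here, and overlapping genes may share reads. Intervals rest on the spread between libraries of 24222201 to 28730822 counts.

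Rounded counts of all 10 libraries entered a single edgeR 4.0.16 model in R 4.3.3, after filterByExpr and TMM scaling, with robust quasi-likelihood F tests. The Benjamini-Hochberg adjustment ran over 12315 genes per comparison, with 0.05 as threshold. SE and 95% intervals follow from the F statistic. The procedure was tested on simulated data without length or GC trends. The planted changes were larger than any of the 10 genes had in the main fit, so smaller changes were not tried.

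Transcript length and GC content are medians over coding transcripts of the GENCODE M21 basic set (GRCm38), matched by gene, and promoters are from RefSeq (GRCm38.p6). Neither is mm9, so coordinates refer only to those sequences. Libraries with the same number in different groups did not deviate together throughout and were not taken as pairs.

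The 10 genes, the lists and the alternatives were chosen with earlier results of these data known. All 10 are named whatever their values, and other listed genes where they passed, up to 10 a comparison. Gabpb1, Gabpb2, Mterf1a, Mterf2, Mterf4, Mrpl12, Ppargc1a and Esrra were named after their values were seen. Alternatives changed the scaling (RLE factors or total count), the filter (none, or at least 10 CPM in 3 libraries), the tool (DESeq2 1.42.0), the libraries (the compared groups alone, or libraries left out) and the model (a replicate block, no robust step, or offsets from natural splines on length and GC content).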

Additional observations from a re-analysis of the deposited data

Results flagged for a closer look

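In 29 sets of 4 spermidine libraries, the gap of the most extreme library to its nearest neighbour was set against the whole range. By chance about 1 in 20 would exceed Dixon's critical ratio for 4 values, and 2 did, both in spermidine replicate 4. Fastk had 4.3 CPM there, against 1.71, 1.70 and 1.90 CPM in the other spermidine libraries (ratio 0.923). Fastkd3 had 25.7 CPM there, against 20.3, 20.3 and 20.5 CPM (ratio 0.960). Both values lay within the range of the aged libraries, 2.80 to 5.34 CPM for Fastk and 24.9 to 26.6 CPM for Fastkd3. None of the 10 genes had such a library.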

How the results depend on the processing

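Over all genes, 2189 passed for aged minus young, 598 for spermidine minus aged and 660 for spermidine minus young. A filter of 10 CPM in 3 libraries left 5784 genes tested, against 12315 in the main fit, and Polg, Polg2, Twnk and Gabpa untested. Of these 5784 genes, 1179 passed for aged minus young and 273 for spermidine minus young. For spermidine minus aged, total count scaling gave 259, DESeq2 1366 and a fit of only the 2 groups 124, and DESeq2 gave 1099 for spermidine minus young. Leaving out each library gave 827 to 2362, 99 to 1127 and 283 to 874. Total count scaling moved the median of all genes for aged minus young to 0.24 from 0.10, and the calls to 1236 higher and 405 lower, against 1196 higher and 993 lower.

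Of the 10 genes, those called higher for aged minus young numbered 1 with length and GC offsets and 1 without the first aged and first spermidine library, and those called lower 1 with DESeq2 and 0 to 1 with a library left out. For spermidine minus aged, Twnk alone (1) was higher with length and GC offsets. For spermidine minus young, 2 were higher with total count scaling, DESeq2, length and GC offsets, or without the first aged and first spermidine library, and 0 to 2 with a library left out. Of the other 61 genes, those called for aged minus young (9) numbered 5 with the stricter filter, under which only 35 were tested. They numbered 16 without the first aged and first spermidine library, where 2570 of 12364 tested genes passed. With a library left out they numbered 2 to 13, where 827 to 2362 passed over all genes. For spermidine minus aged (4) they numbered 2 with total count scaling, no filter or only the 2 groups, 11 with DESeq2, 7 with length and GC offsets, and 1 to 12 with a library left out. For spermidine minus young (4) they numbered 8 with DESeq2, 7 with only the 2 groups, length and GC offsets, or without the first aged and first spermidine library, and 0 to 7 with a library left out.

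With the replicate block, 998 genes were called for spermidine minus aged, 10 of the other 61 genes in that comparison, and 0 of the 10 genes as higher for spermidine minus young. Same-numbered libraries correlated at -0.275 to 0.408 and differently numbered ones at -0.414 to 0.356. The highest value was that of aged replicate 1 with spermidine replicate 1. These ranges overlap widely, so they neither show pairing nor exclude it.

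Signs turned for values that were not called, and the cause was not tested. With length and GC offsets, aged minus young was -0.0226 for Polg, -0.213 for Polrmt, -0.00387 for Twnk and -0.00966 for Gabpa, and spermidine minus aged was -0.0480 for Tfam, 0.144 for Polg, 0.234 for Polrmt, -0.109 for Ssbp1 and 0.0225 for Nrf1. For Polg2, aged minus young was -0.0178 with RLE factors, -0.0172 with DESeq2 and -0.0220 with only the 2 groups. Without the first aged and first spermidine library, aged minus young was 0.0279 for Nrf1 and -0.383 for Gabpa. Spermidine minus aged was 0.0296 for Polg with the replicate block and 0.00360 for Nrf1 with total count scaling. Spermidine minus young for Tfb1m was 0.133 with total count scaling and 0.0200 with the stricter filter. With a library left out, aged minus young ran from -0.189 to 0.279 for Polg2, -0.347 to 0.0354 for Nrf1 and -0.375 to 0.609 for Gabpa, and spermidine minus aged from -0.163 to 0.0306 for Polg, -0.375 to 0.0356 for Polrmt and -0.254 to 0.167 for Nrf1. Depth limits Polg2 and Gabpa most, at 12 to 53 counts a library.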
